A study of Homo sapiens with 4 samples.

Results

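The 10 genes described here encode cohesin, the proteins that load and release it, and its partner CTCF: SMC1A, SMC3, RAD21, STAG1, STAG2, NIPBL, WAPL, PDS5A, PDS5B and CTCF. They were listed by name out of 19974 protein-coding genes. Every BRD8 region whose summit, its point of highest signal, lay inside the gene or within 1 kb of either end was taken. This gave 23 of 22303 regions in HCT116 and 13 of 12874 in SW480. BRD8 is a bromodomain protein of the TIP60/NuA4 histone acetyltransferase complex, and the series mapped its binding sites in HCT116 and SW480, both established human colorectal cancer cell lines. Each line gave 1 library precipitated with a polyclonal BRD8 antibody and 1 input library, after 10 minutes in 1% formaldehyde and digestion with micrococcal nuclease. HCT116 was grown in McCoy's 5A medium and SW480 in Leibovitz's L-15, so line and medium cannot be told apart. No treatment is named in the labels. With 1 ChIP library per line, no value has a replicate check and no test between the lines was made. The lists carry no expression values, so the identity of the lines was not checked.

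Cohesin is a ring-shaped complex that holds sister chromatids together from replication to anaphase and that folds interphase chromatin into loops. SMC1A and SMC3 are the ATPase arms of the ring and RAD21 is the kleisin that closes it, while STAG1 and STAG2 are alternative subunits that bind RAD21. NIPBL loads cohesin and stimulates loop extrusion, WAPL releases it from chromatin, and PDS5A and PDS5B bind the ring and take part in both its release and its protection. CTCF is a zinc finger protein that halts extruding cohesin at its binding sites and so sets the anchors of many loops. STAG2 is mutated in several human cancers, and NIPBL is the gene most often mutated in Cornelia de Lange syndrome.

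The promoter sequences below are those of 6 members with a BRD8 region over the annotated start window, which runs from 250 bases before a transcript start to 50 after it (RefSeq, GRCh38.p14). They are shown, in the sense of the gene, because a region of HCT116, SW480 or both covered all or part of each. HCT116 regions covered no base of the PDS5B window, and SW480 regions none of the STAG1 and CTCF windows. The summits upstream of STAG1 and WAPL lay beyond the windows. Windows of SMC1A, NIPBL and PDS5A were also covered in part or whole but are not printed. In all, 9 of the 10 members matched an entry. Capitals mark matches, on either strand, to any of 10 short motifs: the GC box GGGCGG, the CCAAT box, an ETS site CCGGAAG, the NRF1 motif, YY1 GCCATNTT, E2F sites TTTGGCGC and TTTCCCGC, the core of the CTCF motif, the E-box CACGTG and the TATA box TATAAA.
SMC3, chr10:110567445-110567744, plus strand: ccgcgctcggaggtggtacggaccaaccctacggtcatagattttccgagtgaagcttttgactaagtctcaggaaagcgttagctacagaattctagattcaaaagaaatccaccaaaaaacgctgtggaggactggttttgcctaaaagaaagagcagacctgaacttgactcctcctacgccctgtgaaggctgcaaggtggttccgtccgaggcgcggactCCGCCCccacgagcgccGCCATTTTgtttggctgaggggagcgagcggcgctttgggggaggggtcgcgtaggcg
STAG1, chr3:136752329-136752628, minus strand: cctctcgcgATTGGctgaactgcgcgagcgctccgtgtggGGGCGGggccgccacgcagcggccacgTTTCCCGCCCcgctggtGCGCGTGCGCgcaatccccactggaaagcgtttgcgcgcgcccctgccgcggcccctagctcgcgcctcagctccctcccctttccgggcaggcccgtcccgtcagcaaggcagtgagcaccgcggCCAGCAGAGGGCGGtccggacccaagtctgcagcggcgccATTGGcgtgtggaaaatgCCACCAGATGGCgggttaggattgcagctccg
STAG2, chrX:123961808-123962107, plus strand: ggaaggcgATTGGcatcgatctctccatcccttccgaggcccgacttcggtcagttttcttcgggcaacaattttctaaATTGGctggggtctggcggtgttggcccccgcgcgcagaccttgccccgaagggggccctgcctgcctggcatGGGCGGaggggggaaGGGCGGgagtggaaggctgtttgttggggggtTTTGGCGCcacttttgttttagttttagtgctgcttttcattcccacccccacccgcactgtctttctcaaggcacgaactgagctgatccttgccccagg
WAPL, chr10:86521743-86522042, minus strand: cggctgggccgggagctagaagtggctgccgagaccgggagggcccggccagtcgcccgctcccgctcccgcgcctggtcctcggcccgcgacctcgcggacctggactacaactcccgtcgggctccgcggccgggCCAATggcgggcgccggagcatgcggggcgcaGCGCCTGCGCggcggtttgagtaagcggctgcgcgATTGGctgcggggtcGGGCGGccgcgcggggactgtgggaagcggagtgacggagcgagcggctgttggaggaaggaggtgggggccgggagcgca
PDS5B, chr13:32586202-32586501, plus strand: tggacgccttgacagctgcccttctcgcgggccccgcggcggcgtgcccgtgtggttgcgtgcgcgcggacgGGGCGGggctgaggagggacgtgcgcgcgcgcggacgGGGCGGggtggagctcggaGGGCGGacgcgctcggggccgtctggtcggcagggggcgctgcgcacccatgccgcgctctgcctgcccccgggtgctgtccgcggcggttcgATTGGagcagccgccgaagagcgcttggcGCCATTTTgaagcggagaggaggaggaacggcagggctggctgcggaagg
CTCF, chr16:67562276-67562575, plus strand: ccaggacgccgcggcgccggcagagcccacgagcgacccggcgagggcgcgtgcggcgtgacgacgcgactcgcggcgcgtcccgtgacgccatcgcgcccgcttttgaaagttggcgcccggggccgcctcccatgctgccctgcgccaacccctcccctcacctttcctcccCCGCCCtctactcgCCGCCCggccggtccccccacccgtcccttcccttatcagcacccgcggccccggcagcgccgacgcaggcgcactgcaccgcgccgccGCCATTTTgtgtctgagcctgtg

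These windows were rich in G and C. Over the 12 windows of the 9 matched members, the GC content ran from 56.0% to 76.3% with a median of 67.2%, against 58.7% over all 35116 windows and 65.0% over windows of genes with a gene-end peak in HCT116. A GC box was present in 12 of 12 member windows, against 45.0% of all windows and 68.5% of those of HCT116-bound genes. The SMC1A windows overlap and STAG2 has 3, so the 12 are not independent. All shares here are per window, whereas a count of members gives a gene with several starts more chances to match. The YY1 letters lay at positions -8 to -1 of SMC3, 0 to 7 of PDS5B and 27 to 34 of CTCF, counted from the annotated start as 0, and 6.58% of all windows and 11.0% of those of HCT116-bound genes held them. The NRF1 letters were found at STAG1, WAPL and the first of the 3 annotated starts of STAG2 (5.78% of all windows and 11.6% of those of HCT116-bound genes). The window of STAG1 held the CTCF core letters at 2 places, -40 to -29 and 18 to 29, and was the only member window with them (2.41% of all windows and 2.77% of those of HCT116-bound genes, also the order of the shares for the remaining motifs). The first of these CTCF matches shares its last 4 bases with a GC box, and the E2F match of STAG1 shares 4 bases with another. An E2F form was present at NIPBL and STAG2 (TTTGGCGC, 0.652% and 1.15%) and at SMC1A and STAG1 (TTTCCCGC, 1.63% and 2.75%). NIPBL and SMC1A held the ETS letters (10.3% and 20.4%), and 5 members held a CCAAT box (34.6% and 35.8%). No member window held the E-box (7.26% and 10.6%) or TATA letters (11.5% and 5.83%). The motifs were picked after these sequences had been seen, and a match describes letters, not a site in use.

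All 10 genes carried a BRD8 region in HCT116 and 9 of 10 did in SW480. Over all protein-coding genes the shares were 52.3% and 29.8%, and over those at least as long as RAD21, the shortest member at 28843 bp, they were 60.9% and 38.4%. Counting gene-end peaks, with a summit within 1 kb of either gene end, 8 of 10 members qualified in HCT116 and 7 of 10 in SW480. The shares over all protein-coding genes were 44.0% and 22.1%, and over the long genes 47.7% and 24.7%. SMC1A, SMC3, RAD21, STAG1, WAPL and PDS5B had gene-end peaks in both lines, which 20.3% of protein-coding genes had. NIPBL and CTCF had one in HCT116 alone and STAG2 in SW480 alone, while PDS5A had none in either line. NIPBL and CTCF in SW480 and STAG2 and PDS5A in HCT116 still had a region, with summits 1119 to 1928 bp inside the gene. The lists stop at a q threshold, so a missing region is no proof that BRD8 was missing.

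Most member regions lay near the start of their gene. Of the 23 HCT116 regions 21 had their summit within 6 kb of the start, and all 13 SW480 regions did. The same share over the regions of all protein-coding genes was not computed, so this count has no comparison. The exceptions were a region of SMC3, 2624 bp from the far end of that gene, and a region 63633 bp inside NIPBL, with folds of 3.06 and 2.95. Among the 9 members with an annotated strand, 9 HCT116 and 6 SW480 regions were gene-end peaks, and all lay at the 5′ end and none at the 3′ end. Genes of at least 10 kb with a gene-end peak had it at the 5′ end in 97.8% of HCT116 cases and 97.5% of SW480 cases, so this is the common position. RAD21 was measured from its higher-coordinate end, which the antisense gene RAD21-AS1 overlaps.

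**Figure D1:**
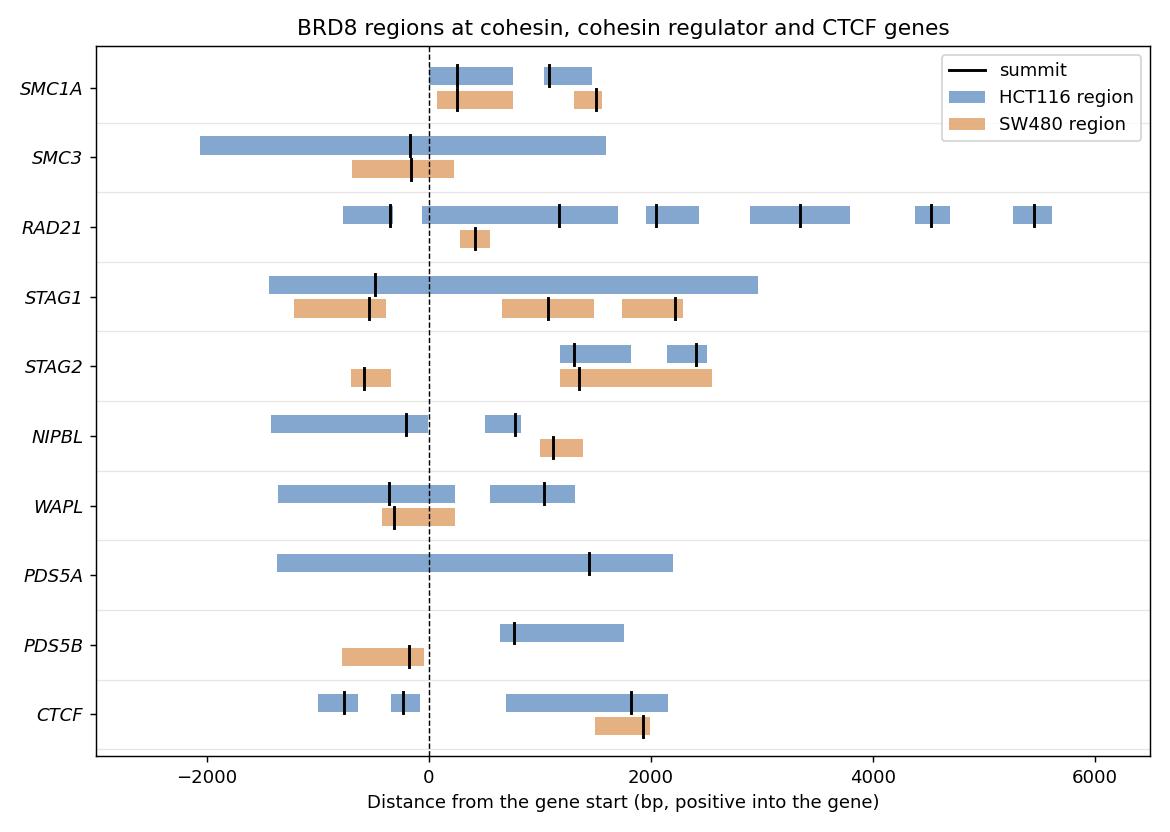
BRD8 regions within 6 kb of the start of each gene, with distance from the gene start in bp on the x axis and 1 row per gene. Blue bars are HCT116 regions, orange bars SW480 regions and black ticks summits; STAG1, SMC3 and PDS5A have HCT116 regions of over 3 kb, and PDS5A has no SW480 bar.

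The ring subunits SMC1A and SMC3 had the highest values among the members in HCT116. At SMC1A, on chromosome X (53374149 to 53422728, GRCh38, minus strand), the fold enrichment over local background was 10.5 in HCT116 and 3.58 in SW480. The −log10 q values were 33.3 and 10.4, and the HCT116 fold was above that of 98.0% of the list's regions while the SW480 fold was above 64.4%. The summits lay 249 and 257 bp inside the gene, 8 bp apart, and the inner edge of both regions fell at position 53421972. A weaker region further in, with its summit 1083 bp from the start in HCT116 and 1509 bp in SW480, had folds of 2.95 and 3.001. Both gene-end peaks of SMC1A also lie within 1 kb of the end of RIBC1, a coding gene on the opposite strand that begins 145 bp from SMC1A, so the peak cannot be assigned to either gene alone.

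SMC3, on chromosome 10 (110567695 to 110606048, plus strand), had the highest −log10 q among the members in both lines. Its −log10 q was 59.7 in HCT116, rank 278 of the list, and 21.4 in SW480, rank 447. The folds were 7.40 and 5.15. The HCT116 region was 3659 bp wide, wider than 98.8% of that list, and the SW480 region of 919 bp lay wholly inside it. The summits were 169 and 158 bp upstream of the start, 11 bp apart, both in the sequence printed above. The number of fragments piled up at the summit, recovered from fold and p, was 121 in HCT116 (95% Poisson interval 100.4 to 144.6) and 62 in SW480 (47.5 to 79.5). These intervals cover counting error only, the pileups are not scaled to the depth of each library, and the summit is by construction the highest point of its region.

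RAD21, the kleisin, lies on chromosome 8 (116845934 to 116874776) and had the most regions of any member in HCT116. That list held 6 regions there, with summits from 353 bp outside the gene to 5450 bp inside it and folds from 2.46 to 4.82. The lowest of these folds was above that of 4.03% of the list's regions and the highest above 75.1%. Only 2.21% of protein-coding genes of at least its length had 6 or more HCT116 regions. RAD21 was singled out as the member with the most, so this share does not measure how unusual the members are. The −log10 q of its 6 regions ran from 1.68 to 12.5. The strongest was 1762 bp wide, spanned the gene end, and had a −log10 q of 12.5 and a summit 1173 bp inside. SW480 had 1 narrow region of 269 bp, its summit 418 bp inside the gene, with a fold of 4.13 at a −log10 q of 5.18. That SW480 region lay wholly within the strongest HCT116 region, although the summits were 755 bp apart.

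The paralogs STAG1 and STAG2 differed in the form of their regions. STAG1, on chromosome 3 (136336236 to 136752378, minus strand), had in HCT116 a region 4406 bp wide that ran from 1442 bp upstream to 2963 bp inside the gene, wider than 99.4% of the list. Its fold was 7.14 and its −log10 q 21.6. In SW480 the same stretch held 3 separate regions of 551 to 831 bp, with folds of 2.86, 4.18 and 2.85, and all 3 overlapped the HCT116 region. The upstream summits of the lines, 483 and 536 bp before the start, lay 53 bp apart. The SW480 region there had the lowest fold of the 3 and the highest pileup, 56 fragments over a background of 19.0, and a pileup of 39 over 8.58 gave the inner region its fold of 4.18.

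STAG2, on chromosome X (123960560 to 124102656, plus strand), was the only member whose strongest region had a higher fold in SW480 than in HCT116, at 5.33 and 5.27. The −log10 q values were 11.6 and 9.33. The summits lay 1349 and 1303 bp inside the gene as annotated from its first start, and 149 and 195 bp upstream of the most downstream of its 3 annotated starts, at 123962058. Both regions began within 2 bp of each other, at 123961743 in SW480 and 123961745 in HCT116. The 300 bases around that start, printed above, were covered whole in both lines, and none of the windows of the other starts was covered in either. Other regions at STAG2 were a HCT116 region 2410 bp inside, with a fold of 3.37, which the wide SW480 region also overlaps, and a SW480 region 582 bp upstream, with a fold of 2.66, which shares its place with the antisense gene STAG2-AS1.

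At the loader gene NIPBL the regions of the lines did not overlap. NIPBL lies on chromosome 5 (36876769 to 37066413, plus strand). Its strongest HCT116 region had a fold of 6.58, a −log10 q of 15.3 and a summit 204 bp upstream of the start, and covered 240 of the 300 bases of the promoter window. A second HCT116 region, with its summit 778 bp inside, had a fold of 2.90. SW480 had 1 region, with its summit 1119 bp inside, a fold of 3.54 at a −log10 q of 3.36. None of the 3 HCT116 regions of NIPBL overlapped it, but the second lay close by. That HCT116 region ended 831 bp inside the gene and the SW480 region began 1000 bp inside.

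WAPL, the release factor, had a peak at the same place in both lines. It lies on chromosome 10 (86435256 to 86521792, minus strand), and its summits were 361 bp upstream of the start in HCT116 and 311 bp in SW480. The folds were 5.47 and 3.97, and the −log10 q values 11.5 and 6.58. The inner edges of the regions, at 86521555 and 86521556, differed by 1 bp, while the outer side reached 1361 bp upstream in HCT116 and 422 bp in SW480. A second HCT116 region with its summit 1034 bp inside had a fold of 3.66 and no SW480 counterpart.

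The PDS5 paralogs had no overlapping regions between the lines. PDS5A, on chromosome 4 (39822863 to 39977911, minus strand), had a HCT116 region 3566 bp wide that spanned its start, with a fold of 6.07, a −log10 q of 12.5 and the summit 1440 bp inside. The SW480 list held no region at PDS5A, and the nearest one lay 79541 bp beyond the gene. PDS5B, on chromosome 13 (32586452 to 32778019, plus strand), had a HCT116 region inside the gene, from 639 to 1752 bp, with a fold of 5.48 at a −log10 q of 10.1. Its SW480 region lay on the other side of the start, from 781 to 45 bp upstream, with a fold of 3.49 at a −log10 q of 4.91. The pileup was 25 fragments at each of these PDS5B summits.

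CTCF, on chromosome 16 (67562526 to 67639177, plus strand), had 3 regions in HCT116 and 1 in SW480. The strongest HCT116 region by −log10 q, at 12.5, was a narrow one of 257 bp with a fold of 4.92 and its summit 229 bp upstream of the start, at the edge of the printed window. A second upstream region, 761 bp away, had a fold of 2.21, lower than all but 0.771% of the list. The remaining region was 1460 bp wide with its summit 1819 bp inside and a fold of 4.81. Only this inner region had a SW480 counterpart, with its summit 1928 bp inside, a fold of 3.12 at a −log10 q of 3.62.

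**Figure D2:**
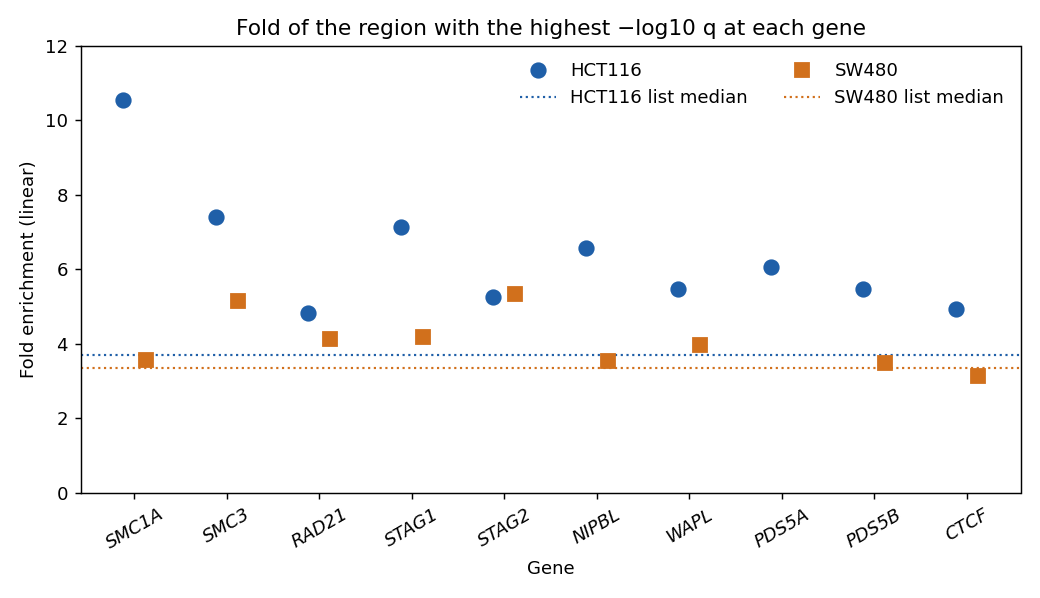
Fold enrichment on a linear axis for the region of highest −log10 q at each gene, with HCT116 as blue circles and SW480 as orange squares; dotted lines are the median fold of each whole list, 3.70 and 3.34. HCT116 values run from 4.82 at RAD21 to 10.5 at SMC1A, and SW480 values from 3.12 at CTCF to 5.33 at STAG2.

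Set against other bound genes, the fold values of the members were spread from the lower part of the range to near its top. The median of the highest gene-end fold was 6.03 over the 8 members bound in HCT116, against 4.87 over 8793 bound protein-coding genes. In SW480 it was 3.58 over 7 members, against 3.40 over 4415 genes. The members ranged from 4.10 at RAD21 to 10.5 at SMC1A in HCT116, and from 2.66 at STAG2 to 5.15 at SMC3 in SW480. SMC1A was above 94.6% of bound genes in HCT116 and 56.9% in SW480, and RAD21 above 32.5% and 74.1%. The lowest in SW480 were STAG2, above 19.4% of bound genes, and STAG1, above 27.4%, which in HCT116 was above 79.8%. The order of the members thus differed between the lists. A member without a gene-end peak has no value here, so these medians do not cover all members. Regions over 1 kb from a gene end are also left out, even where they are the strongest of a member by −log10 q. This applies in SW480 to STAG2, with a fold of 5.33, and STAG1, at 4.18, and in HCT116 to RAD21, at 4.82. The low places of these members thus rest on their weaker regions.

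By pileup at the region of highest −log10 q, SMC3 stood above the other members in HCT116, and its interval did not meet that of SMC1A, next at 49 fragments (36.3 to 64.8). STAG1 followed at 43, RAD21 at 37, CTCF at 36, NIPBL at 32, WAPL at 29, PDS5A at 28, PDS5B at 25 and STAG2 at 24 (15.4 to 35.7). Neighbours in this order below SMC3 did not differ beyond their counting intervals. In SW480 the order was SMC3 at 62, SMC1A at 49 (36.3 to 64.8), STAG1 at 39, STAG2 at 32, WAPL at 27, PDS5B at 25, CTCF at 23, RAD21 at 20 and NIPBL at 17 (9.90 to 27.2). There every neighbouring pair had overlapping intervals.

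Between the lines, 9 of 23 HCT116 regions and 10 of 13 SW480 regions of the members overlapped by at least 1 bp. Of all regions in or within 1 kb of protein-coding genes 27.5% and 59.6% did, and of all regions 24.2% and 49.1%. The overlaps formed 11 pairs at 7 genes, and NIPBL, PDS5A and PDS5B had none. In 5 pairs, at SMC1A, SMC3, STAG1, STAG2 and WAPL, the summits lay within 100 bp of each other, from 8 to 53 bp. The fold was lower in SW480 in 8 of the 11 pairs. Over 6436 overlapping pairs of the whole lists, counted in the same way, it was lower in 86.0%. A region can enter more than 1 pair, as the wide STAG1 region of HCT116 and the wide STAG2 region of SW480 did. The pairs are therefore not independent.

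The pileup and the background behind these folds differed in different ways. At SMC1A the summit pileup was 49 fragments in each line, while the local background was 3.75 in HCT116, the lowest level of that list, and 13.0 in SW480. Over the 11 pairs the ratio of SW480 to HCT116 ran from 0.512 to 2.13 for the pileup, with a median of 0.931, and from 0.594 to 3.68 for the background, with a median of 1.39. Over the pairs of the whole lists the medians were 0.923 and 1.62. SMC3 and RAD21 were the members with a lower SW480 background, at 11.2 against 15.5 and 4.09 against 6.88, and they also had the lowest pileup ratios, 0.512 and 0.541. The RAD21 summits lay 755 bp apart, so its ratios compare different positions. Summits were within 100 bp of each other in only 5 of the 11 pairs. The background is the peak caller's own estimate, and what set it at these genes was not tested.

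**Figure D3:**
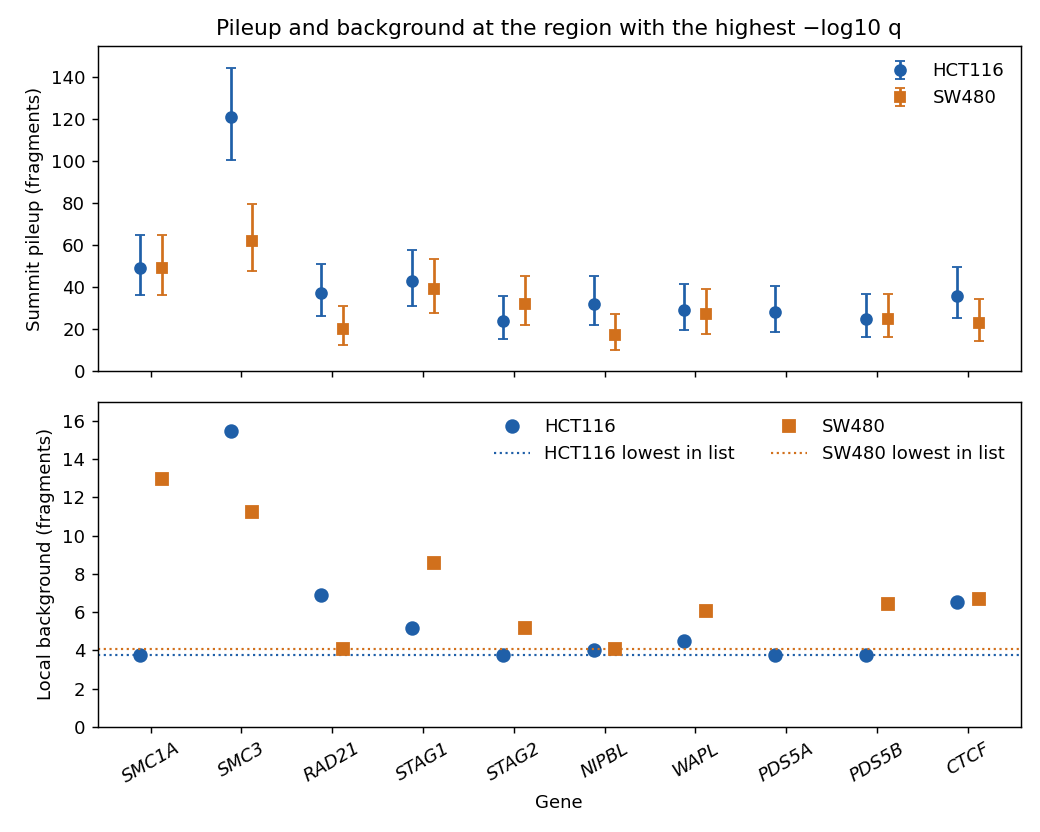
Summit pileup in fragments (upper panel, bars are 95% Poisson intervals for counting error) and local background in fragments (lower panel) at the region of highest −log10 q of each gene, for HCT116 (blue circles) and SW480 (orange squares). Dotted lines mark the lowest background of each list, 3.75 and 4.09; SMC3 has the highest pileup in both lines, and the SMC1A pileups are equal while the backgrounds are not.

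The breadth of bound DNA around the starts also varied. Within 3 kb on either side of the start, HCT116 regions covered 4406 bp at STAG1, 3659 bp at SMC3 and 3566 bp at PDS5A, against a median of 1456 bp over the 7945 protein-coding genes with any coverage there. STAG2 and PDS5B were below that median at 1003 and 1114 bp, as was SMC1A at 1183 bp. In SW480 the coverage was 2205 bp at STAG1, 1733 bp at STAG2 and 384 bp at NIPBL, against a median of 689 bp over 4266 genes. SMC1A, with the highest HCT116 fold, had 931 bp in SW480, so its coverage was below the median in HCT116 and above it in SW480. STAG1 had the most coverage of the members in both lines.

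Summits of the members lay on both sides of the start. Within 1 kb of the start, 6 of 9 HCT116 summits and 5 of 6 SW480 summits were upstream, whereas 43.6% and 43.4% of such summits at all protein-coding genes were. The closest were those of SMC3, at 169 and 158 bp. Of all such summits 25.9% in HCT116 and 19.9% in SW480 were closer to the start than these. At all genes the fullest bin lay 100 to 200 bp inside the gene, with 19.3% and 19.6% of summits, and no member had a summit in it when measured from the outermost start. From its nearest annotated start SMC1A had summits 175 and 183 bp inside, within that bin.

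**Figure D4:**
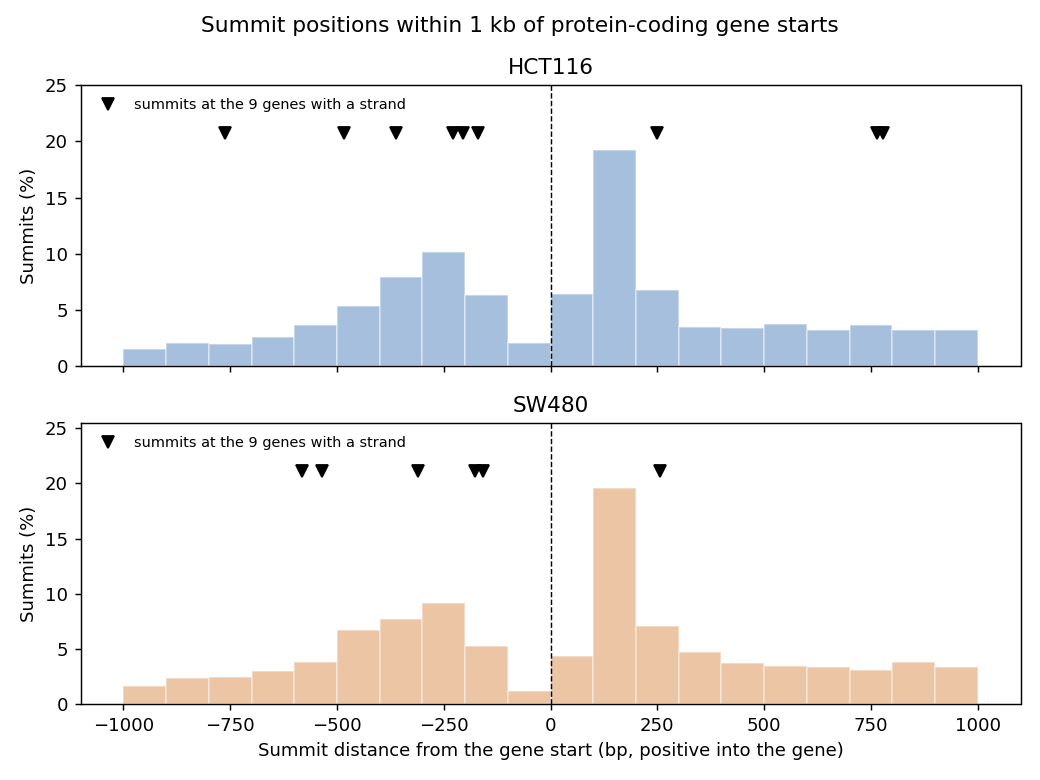
Summit distance from the start of protein-coding genes in bp (x axis, 100 bp bins) as a percent of all summits within 1 kb of a start (y axis), for HCT116 above and SW480 below. Triangles mark summits at the 9 genes with an annotated strand: 9 in HCT116 and 6 in SW480, most of them upstream of the start.

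Most of these starts have a second gene next to them. Of the 10 members, 9 had the end of another annotated gene within 1 kb of their start, and PDS5A did not. This holds for 34.5% of the 15813 protein-coding genes with an annotated strand, which do not include RAD21. Divergent transcripts named after their partner adjoin STAG1, NIPBL, WAPL, PDS5B and CTCF, with ends from 7 bp (PDS5B-DT) to 293 bp (STAG1-DT) from the start. Other neighbours are LOC105378483, a long noncoding RNA gene 387 bp from SMC3, STAG2-AS1, RAD21-AS1 and RIBC1, with the microRNA gene MIR3610 24 bp from the RAD21 end and LOC124903703 924 bp from CTCF. At SMC1A, SMC3, RAD21, STAG1, WAPL and PDS5B the gene-end peaks of both lines lay within 1 kb of an end of that neighbour too. Among the genes with a strand and such a neighbour 64.8% had a HCT116 peak within 1 kb of the start and 36.2% a SW480 peak, against 34.4% and 16.3% of those without.

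Other genes of the same machinery also carried gene-end peaks, counted here over 4 lists chosen by function. Of 12 cohesin partners, regulators and germline forms, HCT116 had gene-end peaks at 9 and SW480 at 6. SGO1, the protector of centromeric cohesin, had folds of 7.34 and 4.33, and PTTG1, the securin that restrains separase, 7.14 and 4.55. ESPL1, separase itself, had 7.30 and 2.29, CDCA5, the sororin that opposes WAPL, 6.67 and 2.05, and the acetyltransferases ESCO1 and ESCO2 had 4.82 and 2.29, and 4.65 and 3.85. MAU2, the partner of NIPBL, had a HCT116 peak alone at 3.32, as did HDAC8, the SMC3 deacetylase, at 3.40. Of the meiotic forms, STAG3, REC8 and RAD21L1 had no region in either line, while SMC1B had a HCT116 peak at 4.75.

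Among related complexes, HCT116 had gene-end peaks at 7 of 8 condensin genes and SW480 at 4. SMC4 had the highest HCT116 fold of these at 14.9, with 4.44 in SW480, and NCAPD2 had 10.6 and 5.80. SMC2, the partner of SMC4, had no gene-end peak but 2 regions in each line. Of 5 genes of the SMC5/6 complex 4 and 3 had such a peak, with SMC6 at 8.35 and 3.09 and SMC5 at 8.13 and 3.10. Of 7 CTCF relatives and looping factors 6 and 3 had such a peak. ADNP had folds of 15.0 and 5.11 and ZNF143, a zinc finger factor of loop anchors, 14.2 and 5.62, both above every cohesin gene in HCT116, while CTCFL, the germline paralog of CTCF, had no region. The members, at 8 and 7 of 10, thus lay within the range of these lists in HCT116 and above each of them in SW480, a difference of a few genes that was not tested.

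**Figure D5:**
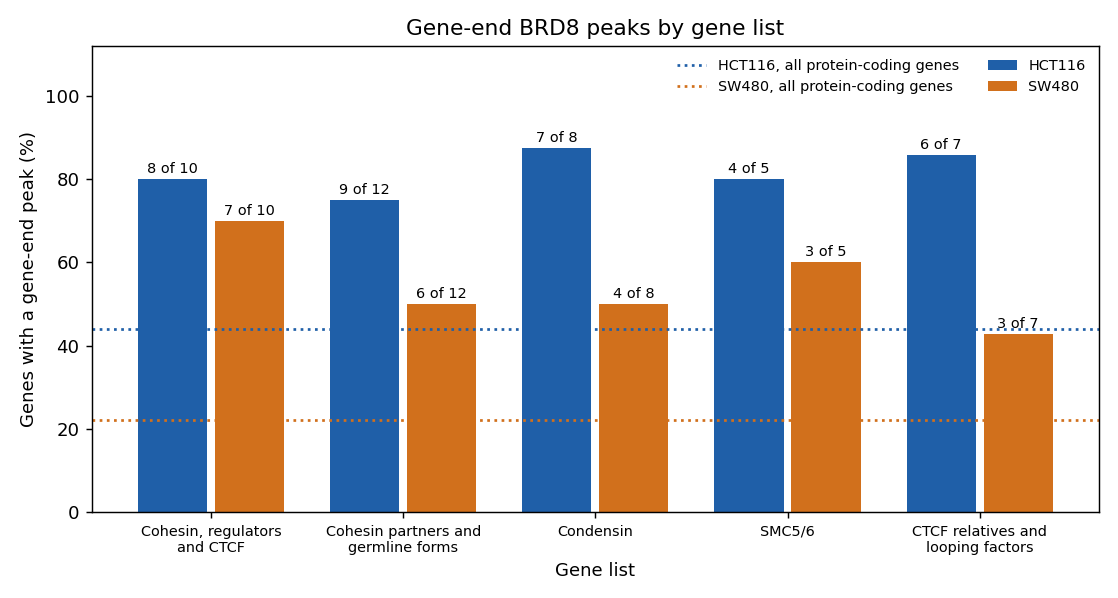
Percent of genes with a gene-end BRD8 peak (y axis, from 0) in the cohesin, regulator and CTCF genes and in 4 related lists, for HCT116 (blue) and SW480 (orange), with counts above the bars. Dotted lines give all protein-coding genes, 44.0% and 22.1%, and every bar stands above the line of its own cell line.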

How the data were processed

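BRD8 peak lists of 2 ChIP libraries, 1 per line, were analysed; the inputs entered only through the authors' peak calling. Per the submitters' processing notes, Trimmomatic 0.33, Bowtie2 2.4.1, MACS2 and deepTools were used with GRCh38; for the last 2 the version, and for all the read filters and duplicate handling, is not given in the sources used here. In these lists the deposited fold is the ratio of summit signal to local background, each raised by 1. The deposited −log10 p and −log10 q values belong to the same summit, and the deposited score repeats the −log10 q. The lists were called at a q of 0.05. Fold depends on depth and input, so it was ranked within lists.

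Only chromosomes 1 to 22 and X were used, leaving out 9 HCT116 and 72 SW480 regions. Genes came from RefSeq (GRCh38.p14), strand and starts from its promoter table, which gave a strand for 15813 coding genes. Exons and introns were not analysed here. Total reads are not in the lists. Pileup and background were solved from fold and p by scanning pileups up to 2999 (relative tolerance 0.0001), which succeeded for 99.996% and 99.99% of regions and was tested on simulated data. The median summit pileup of HCT116 regions was 24 fragments and that of SW480 regions 26, the lowest 12 and 13. Python 3.11.15, pandas 2.3.3 and scipy 1.17.1 were used.

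The members, gene lists and motifs were chosen with earlier results of these data known. Named genes were all members, genes sharing their peaks and genes of the lists. No test was made, because each line has 1 library. Alternatives covered the peak threshold, list length, distance to the gene, use of the summit and the overlap rule.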

Additional observations from a re-analysis of the deposited data

How the results depend on the processing

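Of 41 values recomputed under another setting, 37 stayed within 1.5 times the reported one, with a change of exactly 1.5 times counted as within. SW480 members with a region fell from 9 to 6 at a −log10 q of at least 5. They also fell to 6 when summits had to lie inside the gene. SW480 members with a gene-end peak fell from 7 to 5 at that q limit. In HCT116 these counts stayed at 10 and 8 with the q limit, and 9 members had a summit inside the gene. The number of HCT116 member regions went from 23 to 12 with only regions of −log10 q 5 or more and to 13 when that list was shortened to the length of the SW480 list. The 13 SW480 regions became 7 with that q limit and 8 when summits had to lie inside the gene. Members with a gene-end peak numbered 7 at a distance of 500 bp and 10 at 2000 bp in HCT116, and 5 and 9 in SW480. Counting within 1 kb of any annotated transcript start, an alternative chosen after seeing the data, gave 9 and 7. No paired analysis was possible because each line has 1 ChIP library. Depth limits the member regions with the fewest fragments at the summit, 13 in HCT116 and 17 in SW480. These were not the regions of lowest fold. The lowest folds, 2.21 at CTCF in HCT116 and 2.66 at STAG2 in SW480, had summit pileups of 19 and 25 fragments. The local backgrounds there were 8.03 and 8.79.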

Other observations

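Just outside the distance rule, 1 region lay within 5 kb of a member. It was a SW480 region with its summit 3144 bp beyond the higher-coordinate end of RAD21, with a fold of 4.91, a −log10 q of 7.93 and a width of 830 bp, and it was stronger than the SW480 region inside the gene. The outermost summits that the rule kept were 761 bp from CTCF in HCT116 and 582 bp from STAG2 in SW480.

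The genes nearest to SMC1A in highest gene-end fold over the 2 lines, by Euclidean distance on the log2 scale, were RIBC1, ARF6 and UTP11. RIBC1 shares the SMC1A peak, so its distance was 0. ARF6 had folds of 10.5 and 3.62 and UTP11 10.7 and 3.60, at distances of 0.015 and 0.024. The measure rests on 2 values per gene.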
